A study of Saccharomyces cerevisiae with 36 samples.

Results

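The proteins of the large (60S) ribosomal subunit of budding yeast (Saccharomyces cerevisiae) were followed through their mRNAs. The genes were taken by name, as every row of the deposited count table called RPL with a number or RPP0, RPP1 or RPP2, with or without an A or B. The pattern found 82 of the 7126 genes in the table. It also caught RPP1, which RefSeq describes as an RNA processing protein and which is a subunit of RNase P and RNase MRP, so 81 genes were counted as large-subunit protein genes. All 81 were among the 6109 genes that passed the filter on low counts, and the lowest count of RPL15B in any library was 625. The 81 genes encode 46 proteins, of which 35 have an A and a B paralog and 11 come from 1 gene.

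Poly-A RNA was sequenced from 36 cultures, 3 for each of 12 groups made of 4 strains and 3 conditions. Cells in YPD were left at 25 °C, moved to 37 °C for 15 min (heat shock), or kept at 25 °C with 10 mM AzC for 1 h. AzC (azetidine-2-carboxylic acid) is a proline analog that cells build into new proteins, which then misfold. All strains were of mating type a and carried his3∆1, leu2∆0, ura3∆0 and met15∆0. The wild type (WT) had no further change. The hsf1∆ strain lacked HSF1, the gene of the transcription factor that drives chaperone genes. At that locus it carried a cassette with kanMX that expresses the chaperones YDJ1, HSC82 and SSA2. The HSF1+ strain carried the same cassette together with HSF1+ and LYS2, and is the matched control of hsf1∆. The last strain was labelled msn2::hphMX4 msn4::natMX4 and lacks, by its label, the paired activators of general stress genes. The cultures of a group were grown in triplicate, with no more said of their origin. P-values thus rest on the spread between cultures, estimated over all 12 groups together and not from the compared cultures alone.

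A ribosome joins a small subunit that reads mRNA to a large subunit that forms peptide bonds and holds the exit tunnel for the new chain. In yeast, whole-genome duplication left most of these proteins with a pair of nearly identical genes. Their promoters are bound by Rap1 together with Fhl1 and Ifh1, while Sfp1, TOR and protein kinase A link them to growth, and stress of many kinds lowers their mRNAs together. The genes of ribosome assembly, which often carry the RRPE and PAC motifs, are known to fall with them.

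Totals ran from 8159203 to 99558095 counts per library, with a median of 13193876, and the 4 deepest held at least 42724231 (WT untreated 2 and 3, and HSF1+ AzC 1 and 2). HSF1 mRNA stood at 98.4 ± 3.76 CPM (counts scaled to library size, SD, n = 3) in untreated WT, 55.4 ± 1.52 in HSF1+ and 14.6 ± 2.15 in hsf1∆. MSN2 mRNA stood at 132.4 ± 3.12 CPM in untreated WT and at 1.41 ± 0.596 in the strain labelled msn2/4∆. MSN4 mRNA was not lost there, at 52.9 ± 4.81 CPM against 38.4 ± 7.53 in WT, so that strain is called by its label throughout. The summed level of 6 genes of a cells ranged from 326 to 2271 CPM over the libraries and that of 4 genes of alpha cells from 49.7 to 105.8 CPM. The highest correlation between libraries was 0.996 in log2 CPM.

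Promoter sequences of the pairs that diverged most after heat shock, RPL15 and RPL9, are shown first. Each line gives the 300 bases that end 100 bases before the first coding base, read 5′ to 3′ on the coding strand, from the R64 genome. RPL15A has its first coding base at chrXII:202590 (minus strand), with the window upstream of it at chrXII:202691-202990. The RPL15B window is chrXIII:510449-510748 (minus strand), that of RPL9A is chrVII:228430-228729 (minus strand), and that of RPL9B is chrXIV:499281-499580 (plus strand). Capitals mark matches to the 6 motifs searched.
RPL15A: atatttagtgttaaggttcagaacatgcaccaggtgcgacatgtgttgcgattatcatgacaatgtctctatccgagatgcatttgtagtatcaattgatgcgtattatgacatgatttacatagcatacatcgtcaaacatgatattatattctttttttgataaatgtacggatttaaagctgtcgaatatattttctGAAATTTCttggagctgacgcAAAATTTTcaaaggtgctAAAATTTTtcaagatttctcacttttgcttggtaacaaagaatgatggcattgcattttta
RPL15B: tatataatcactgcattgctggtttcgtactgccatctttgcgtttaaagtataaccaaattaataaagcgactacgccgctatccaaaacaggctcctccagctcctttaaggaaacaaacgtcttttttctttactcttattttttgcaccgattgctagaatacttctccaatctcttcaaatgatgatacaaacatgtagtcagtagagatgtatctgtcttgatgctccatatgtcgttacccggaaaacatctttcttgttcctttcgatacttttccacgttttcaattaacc
RPL9A: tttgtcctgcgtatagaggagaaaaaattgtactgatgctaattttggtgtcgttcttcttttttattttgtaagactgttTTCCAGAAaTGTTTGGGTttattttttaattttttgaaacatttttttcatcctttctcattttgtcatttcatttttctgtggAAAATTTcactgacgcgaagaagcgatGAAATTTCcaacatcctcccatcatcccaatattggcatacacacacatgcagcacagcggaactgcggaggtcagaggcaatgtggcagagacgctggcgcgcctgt
RPL9B: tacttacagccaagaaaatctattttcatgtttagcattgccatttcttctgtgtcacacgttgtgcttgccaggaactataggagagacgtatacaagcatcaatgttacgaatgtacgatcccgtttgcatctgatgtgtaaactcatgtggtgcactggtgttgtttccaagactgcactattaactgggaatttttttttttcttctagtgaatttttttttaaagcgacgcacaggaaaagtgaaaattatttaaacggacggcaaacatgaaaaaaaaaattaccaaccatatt
The motifs, searched on both strands of the 500 bases before the coding start, were the Rap1 core ACCCNNACA, the stress response element AGGGG, PAC (GATGAG), RRPE (AAAATTT), and the heat shock element parts TTCNNGAA and GAANNTTC. RPL9A held the Rap1 core, an RRPE and both heat shock element parts, while RPL9B held no match but an RRPE 480 to 474 bases before its start. RPL15A held RRPE matches, some of which overlap, and 1 GAANNTTC, and RPL15B held no match to any of the 6. Copies also differed in RPL42, a pair whose ratio changed in no strain after heat shock. RPL42B held the Rap1 core, the stress response element and RRPE, and RPL42A held no match. A link between motifs and ratios was not tested. A match describes letters and not bound sites.

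Over all 81 promoters, 36 (44.4%) held the Rap1 core, against 5.47% of 6000 promoters of the genome. RRPE was in 50.6% of the 81 and 34.1% of all, and GAANNTTC in 29.6% and 19.2%. TTCNNGAA was in 24.7% and 21.2%. The stress response element was in 29.6% of the 81 and 34.1% of all, and PAC in 22.2% and 28.2%.

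Untreated cells gave a large share of their mRNA to these genes. The 81 genes took 12.4% ± 0.732 (SD, n = 3) of all counts in WT, 12.1% ± 0.634 in the strain labelled msn2/4∆, 10.3% ± 0.345 in HSF1+ and 7.87% ± 0.482 in hsf1∆. The 56 small-subunit genes tested took 9.44% ± 0.634, 9.11% ± 0.52, 8.18% ± 0.364 and 6.18% ± 0.42 in the same order. After heat shock the share of the 81 genes was 1.26% ± 0.261 in WT, 1.06% ± 0.183 in the strain labelled msn2/4∆, 1.47% ± 0.242 in HSF1+ and 0.621% ± 0.0997 in hsf1∆. After AzC it was 5.35% ± 0.661 in WT, 4.18% ± 0.324 in the strain labelled msn2/4∆, 6.97% ± 0.641 in HSF1+ and 7.67% ± 0.624 in hsf1∆. The heat-shocked libraries lie below all untreated and AzC libraries, and the untreated and AzC ranges of hsf1∆ overlap. Counts are shares of a library, so fewer mRNAs of these genes per cell and more of all other mRNA cannot be told apart.

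**Figure D1:**
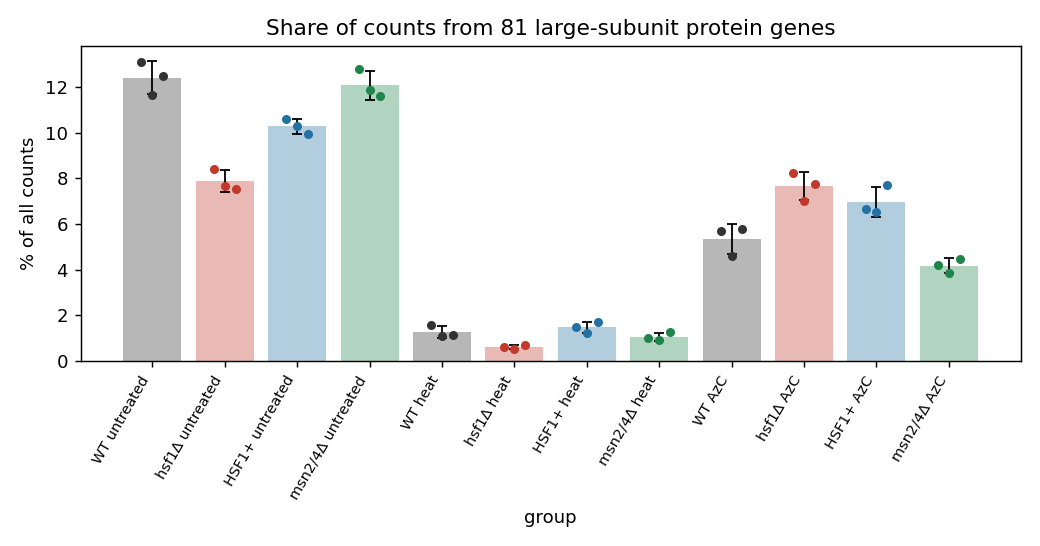
Share of all counts (%, y axis) taken by the 81 large-subunit protein genes in each of the 12 groups (x axis), with bars for the mean, error bars for the SD of 3 libraries and points for the libraries. WT fell from 12.4% to 1.26% after heat shock and 5.35% after AzC, while hsf1∆ stood at 7.87% untreated and 7.67% after AzC.

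Levels per kilobase of coding sequence in untreated WT spread widely between single genes, with the copies of a pair taken apart. The highest were RPL41A at 17774 ± 2094 CPM per kb (SD, n = 3), RPL38 at 8572 ± 683 and RPL36B at 7544 ± 259. The libraries of RPL41A lay above those of RPL38, and RPL38 above RPL36B. RPL41 encodes a peptide of 25 residues, and its coding length leaves out the untranslated parts of the mRNA that were sequenced with it. The lowest were RPL15B at 103.1 ± 4.14, RPL7B at 504 ± 40.9 and RPL22B at 512 ± 70.3 CPM per kb. The ranges of RPL7B and RPL22B overlap, and RPL15B lay below both.

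Near-identical copies limit how well the authors' counting could separate the paralogs. Of the 35 pairs, 12 encode the same protein, and 50 of the 81 coding sequences share at least 1 stretch of 50 bases with another place in the genome. In 12 of them more than 50 in 100 such stretches recur elsewhere, among them both genes of RPL41, whose coding sequences differ by 1 base (capital):
RPL41A: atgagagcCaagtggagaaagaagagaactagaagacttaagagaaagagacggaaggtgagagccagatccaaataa
RPL41B: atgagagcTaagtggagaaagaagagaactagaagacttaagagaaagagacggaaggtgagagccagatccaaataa
These lie at chrIV:130407-130484 and chrIV:221724-221801 on the minus strand. For the RPL15 genes 11.8% of the stretches recur elsewhere, for RPL9A and RPL9B 14.04%, and for RPL7B 62.3%. The shares are 81.35% for the RPL35 genes, 80.99% for the RPL1 genes and 48.6% for the RPL14 genes. The labels and notes do not say how reads that match more than 1 place were treated, so ratios within pairs of high identity are uncertain.

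Heat shock for 15 min lowered 80 of the 81 genes in each of the 4 strains, and RPL15B was the member that rose in each. The median change in WT was −3.46 on the log2 scale, an 11.03-fold fall, and the middle 50 in 100 lay between −3.66 and −3.03. Medians were −3.84 in hsf1∆, −2.77 in HSF1+ and −3.77 in the strain labelled msn2/4∆. Calls are at an adjusted p below 0.05 from edgeR over 6109 genes, of which 38.1% were lower and 42% higher in WT, 38.4% and 38.2% in hsf1∆, 36.5% and 40% in HSF1+, and 34% and 43.5% in the strain labelled msn2/4∆. The median of all genes was 0.053 in WT, and the 56 small-subunit genes had a median of −3.52, all lower.

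Grouped by role, the medians in WT lay between −3.71 and −2.96, and every member of the named roles fell. The core proteins of the peptidyl transferase region (RPL2, RPL3, RPL10) had a median of −3.65 in WT over 4 genes, and the partners of the 5S RNA (RPL5, RPL11) −3.60 over 3. Genes of the exit tunnel had −3.44 over 14, those of the P stalk, which recruits elongation factors, −3.11 over 7, and the L1 stalk pair −3.71. A further class of proteins dispensable for growth (RPL22, RPL24, RPL29, RPL38, RPL41) had −2.96 over 8 genes, with a range from −4.17 to −0.88. Each protein was put in 1 class only, so this class is not a full list of dispensable proteins. Its median depends on which were listed. Genes with an intron (53) had a median of −3.47 and those without (28) −3.37.

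RPL9A, for a protein beside the GTPase-associated centre, fell the most in WT. Its untreated libraries held 2114, 1826 and 2197 CPM and its heat-shocked ones 105.5, 53.2 and 69.8. The ranges lie far apart, and the log2 change was −4.75 (standard error 0.37, adjusted p = 2.08e-12). RPL26B (exit tunnel) went from 1485, 1266 and 1441 CPM to 103.05, 56.2 and 65.8, a change of −4.22 (standard error 0.28, adjusted p = 8.2e-14). RPL31B (exit tunnel) went from 1098, 978 and 1082 CPM to 67.3, 45.7 and 57.1, a change of −4.22 (standard error 0.22, adjusted p = 2.34e-16). RPL9A was also the lowest in hsf1∆ (−5.26, standard error 0.38), HSF1+ (−3.83, standard error 0.35) and the strain labelled msn2/4∆ (−5.46, standard error 0.38).

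Besides RPL15B, the smallest falls in WT were those of RPL41. RPL41B had 569, 489 and 619 CPM untreated and 319, 251 and 339 after heat shock, and its log2 change was −0.88 (standard error 0.17, adjusted p = 3.86e-05). RPL41A had 1511, 1201 and 1447 CPM untreated and 425, 422 and 552 after heat shock, a change of −1.57 (standard error 0.16, adjusted p = 3.52e-10). In HSF1+ the smallest fall was that of RPL22B, at −0.91 (standard error 0.27, adjusted p = 0.00304), while in hsf1∆ this gene fell by 3.34 on the log2 scale (standard error 0.3). In hsf1∆ the smallest falls were RPL9B at −1.64 and RPL41A at −1.76.

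Among the 11 genes without a paralog, RPL39, for a small protein in the wall of the exit tunnel, had the smallest fall in WT, with a log2 change of −2.63 (standard error 0.19). RPL5, which brings the 5S RNA into the subunit, had the largest, with −3.60 (standard error 0.21). The fall was larger for genes with a higher untreated level. Spearman's rho between the WT change and the level in untreated libraries of the strain labelled msn2/4∆, which share no library, was −0.5 across the 81 genes. With coding length it was −0.34, and with the share of recurring 50-base stretches −0.025. Genes are not independent replicates, and these values are descriptions.

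**Figure D2:**
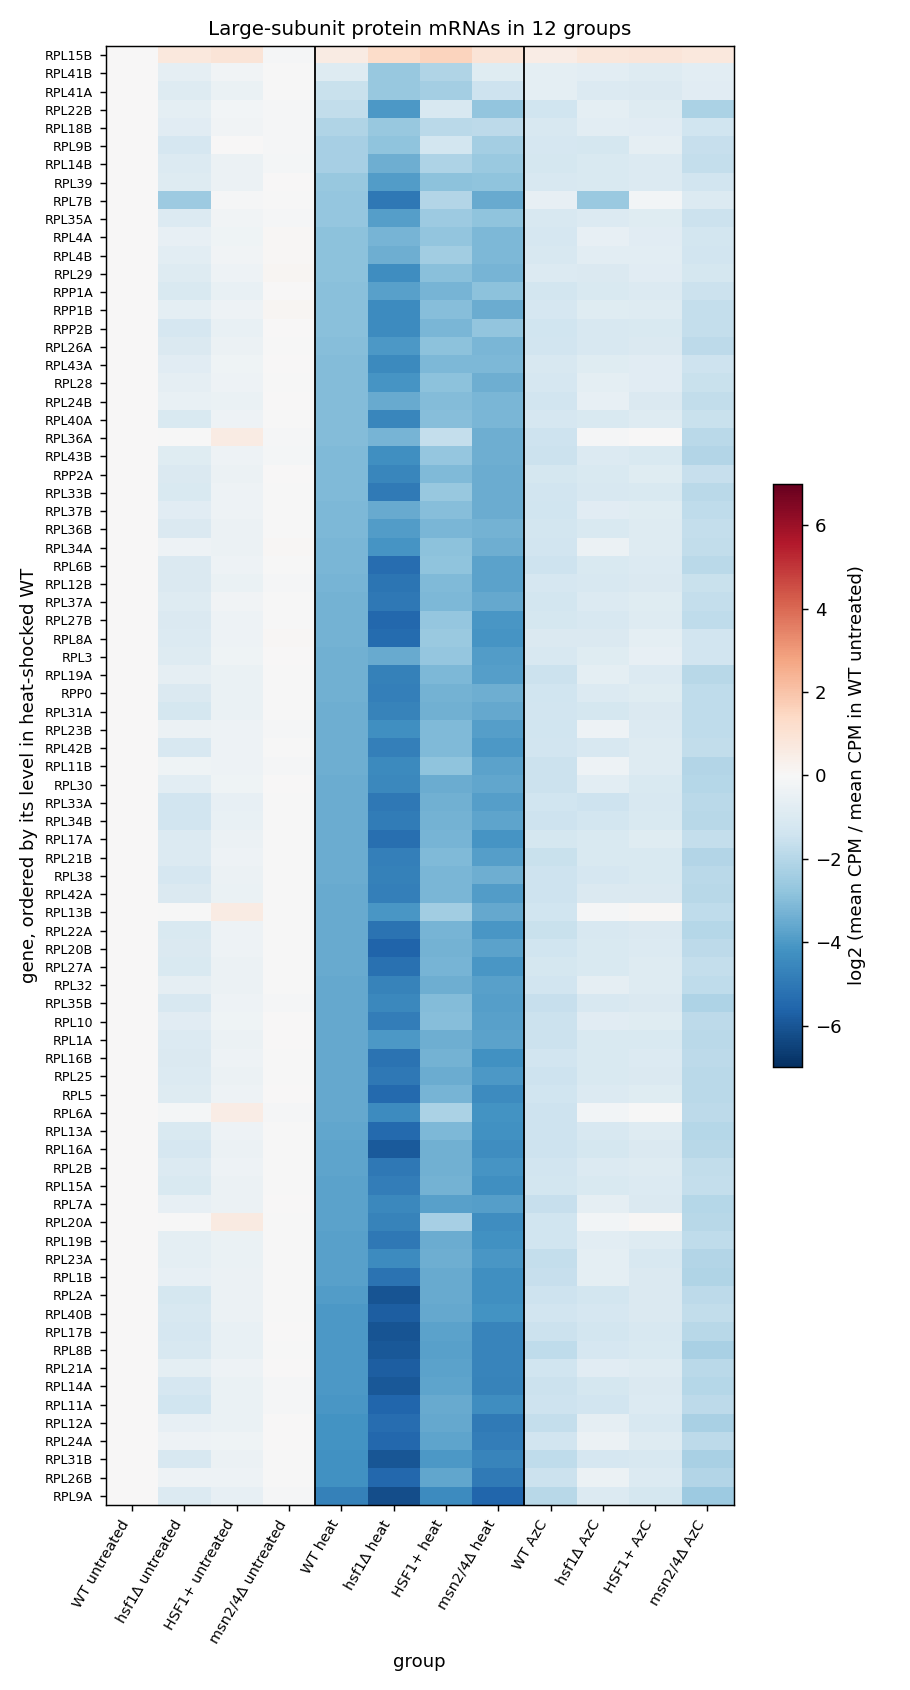
Level of 80 of the 81 genes (rows, ordered by the WT heat-shock value) in each of the 12 groups (columns), as log2 of the mean CPM over the mean in untreated WT (colour). The heat-shock columns are blue in all rows but RPL15B, the hsf1∆ AzC column resembles hsf1∆ untreated, and RPL7B is blue in hsf1∆ in all 3 conditions.

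AzC for 1 h lowered the same class less, and not detectably in hsf1∆. In WT 80 members were lower and RPL15B higher, with a median of −1.37 (2.59-fold), where 32.7% of all genes tested were lower and 34.2% higher. In the strain labelled msn2/4∆ 80 were lower with a median of −1.78, where 31% of all genes were lower and 36% higher. In HSF1+ 75 were lower and 6 did not pass, with a median of −0.56, where 21.9% of all genes were lower and 23% higher. Without the second HSF1+ AzC library the count fell to 40. In hsf1∆ none of the 81 passed with edgeR, none had an unadjusted p below 0.05, DESeq2 called none, and the median was −0.041. In that comparison 174 of the 6109 genes had an unadjusted p below 0.05, 1 gene was called lower (0.0164%) and 0 were called higher.

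RPL9A again fell most in WT, to 597, 415 and 600 CPM, a log2 change of −1.93 (standard error 0.33, adjusted p = 7.56e-06). RPL31B followed at −1.78 (standard error 0.19) and RPL8B, whose protein also acts in rRNA processing, at −1.78 (standard error 0.2). RPL7B had the smallest fall, from 403, 343 and 365 CPM to 260, 229 and 247, a change of −0.59 (standard error 0.21, adjusted p = 0.0153). That call was lost without the first untreated WT library (adjusted p = 0.0526) and with scaling by library size alone (0.0772). RPL41B fell by 0.66 (standard error 0.17, adjusted p = 0.00144). In HSF1+ the lowest was RPL31B at −0.75 (standard error 0.19, adjusted p = 0.00231), and RPL3, which lies at the peptidyl transferase centre, did not pass at −0.28 (standard error 0.14, adjusted p = 0.11).

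Set directly against each other, AzC libraries held more of these mRNAs than heat-shocked ones. In WT 78 of the 81 were higher after AzC and 3 did not pass, with a median difference of 2.06, where 30.5% of all genes were higher and 32.7% lower. In hsf1∆ 80 were higher with a median of 3.80 (38.3% of all genes were higher and 37.9% lower). In HSF1+ 79 were higher with 2.22 (34.7% and 34.8%), and in the strain labelled msn2/4∆ 78 with 1.91 (28.1% and 29.6%). RPL15B was the 1 member lower after AzC than after heat shock in each of these 3 strains, and in the last its call was lost under 10 alternatives. RPL24A, a dispensable protein at a bridge to the small subunit, had the largest difference in WT, 671 against 94.6 CPM on average, 2.83 on the log2 scale (standard error 0.26). The doses and times of the stresses differ, so no ranking of the stresses follows.

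RPL15B stood apart from the other 80 genes. RPL15A and RPL15B encode the rRNA-binding protein eL15, whose 204 residues are 99.0% identical between the copies, and RPL15A is the copy that yeast needs for growth. RPL15A held 3435, 3259 and 3411 CPM in untreated WT, 325, 203 and 232 after heat shock and 1483, 1176 and 1410 after AzC. RPL15B held 64.8, 60.5 and 65.0 CPM untreated, 95.1, 92.9 and 98.0 after heat shock and 87.3, 95.8 and 91.0 after AzC. The treated and untreated ranges do not overlap for either copy, and the copies moved in opposite directions. RPL15A changed by −3.73 (standard error 0.18, adjusted p = 9.07e-17) and −1.31 (standard error 0.17, adjusted p = 8.33e-08). RPL15B changed by 0.59 (standard error 0.057, adjusted p = 2.04e-10) and 0.53 (standard error 0.057, adjusted p = 4.80e-09).

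RPL15B rose after heat shock in the other strains too, and after AzC it rose in the strain labelled msn2/4∆ but did not pass in hsf1∆ or HSF1+. In hsf1∆ it held 110.3, 102.4 and 106.3 CPM untreated, 148, 159 and 161 after heat shock and 112.6, 107.3 and 106.6 after AzC. The heat-shock change was 0.55 (standard error 0.057, adjusted p = 8.91e-10) and the AzC change 0.034, which did not pass (adjusted p = 1.0). In HSF1+ it held 124.7, 113.9 and 110.8 CPM untreated, 183, 184 and 196 after heat shock and 110.6, 113.1 and 114.5 after AzC, with changes of 0.69 (adjusted p = 1.03e-11) and −0.046 (adjusted p = 0.53). In the strain labelled msn2/4∆ it held 58.3, 59.4 and 62.5 CPM untreated, 122.8, 111.8 and 114.8 after heat shock and 100.5, 112.996 and 105.04 after AzC. The changes there were 0.96 (adjusted p = 1.12e-14) and 0.82 (adjusted p = 7.81e-13). The order over the 12 groups runs from the untreated libraries without the cassette (60.03 and 63.4 CPM on average) to HSF1+ heat shock (188 CPM). The untreated cassette strains, 106.3 and 116.4 CPM, overlap the AzC libraries of those strains.

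**Figure D3:**
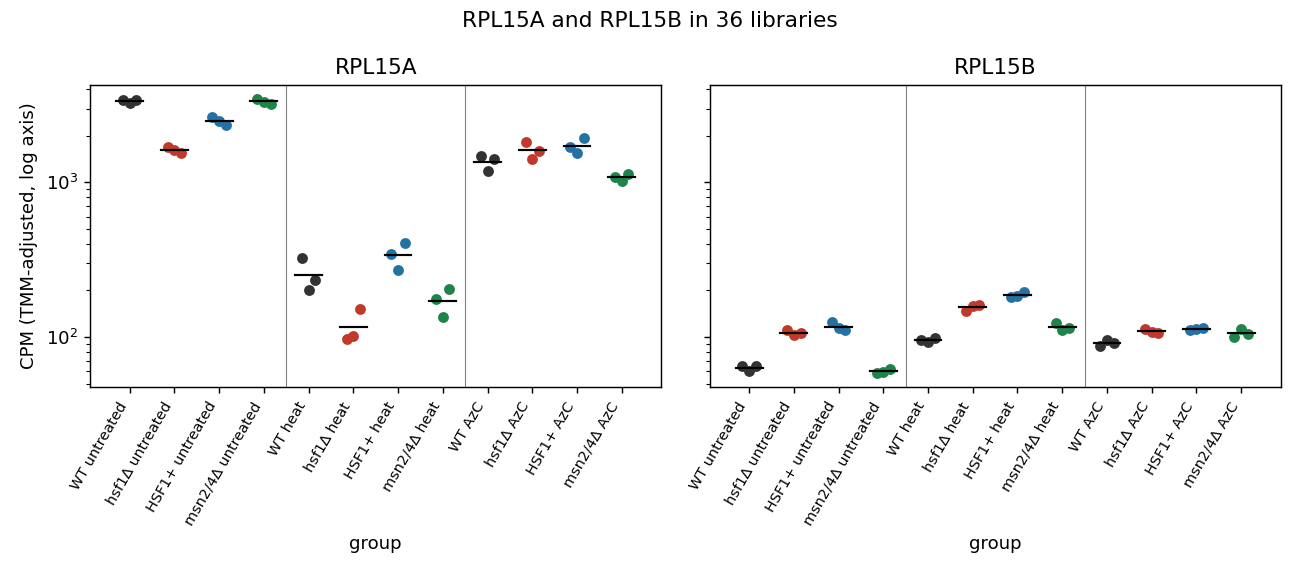
CPM of RPL15A (left) and RPL15B (right) in each of the 36 libraries (points) by group (x axis), with group means as bars, on a log axis. RPL15A fell from 3368 to 253 CPM on average in WT after heat shock, while RPL15B went from 63.4 to 95.4 CPM.

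Of all 35 pairs, RPL15 had the largest change of the log2 A/B ratio after heat shock, averaged over the strains (−4.39). RPL15B made up 1.85% ± 0.0242 (SD, n = 3) of the pair's CPM in untreated WT, 27.9% ± 4.66 after heat shock and 6.38% ± 1.03 after AzC. In heat-shocked hsf1∆ it reached 57.6% ± 5.1, with each library above 50% (lowest 51.7%), from 6.18% ± 0.243 untreated. In heat-shocked HSF1+ it was 35.9% ± 4.02 and in the heat-shocked strain labelled msn2/4∆ 40.7% ± 4.63. Across the 12 group means, log2 CPM of RPL15B had a Pearson correlation of −0.66 with the mean of the 81 genes, where the other 80 had at least 0.82.

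The 5 genes most like RPL15B over the 12 group means, by Pearson correlation of log2 CPM, were SPG5 (0.969), USA1 (0.966), ADI1 (0.96), YML003W (0.958) and FAR3 (0.955). All 5 lie on chromosome XIII, as does RPL15B. Of the 100 genes most like it, 81 were among the 457 tested genes of that chromosome, and 0 were large-subunit protein genes. The groups of the cassette strains share the raised level of chromosome XIII described with the strain comparison.

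The ratio of A to B changed in most pairs after heat shock. It was tested with limma on the log2 ratio of counts over all 61 A/B pairs in the table, which besides the 35 large-subunit pairs hold 26 others. The others were found by name and include pairs of small-subunit ribosomal protein genes. Shares over all 61 are therefore no background of unrelated paralogs. In WT 24 of the 35 ratios changed (70.5% of all 61), in hsf1∆ 28 (85.2%), in HSF1+ 26 (73.8%) and in the strain labelled msn2/4∆ 27 (80.3%), so the share among the 35 was near that of the other pairs. After heat shock 18 of the 35 pairs (51.4%) changed in all 4 strains, as did 34 of all 61 (55.7%). Of the 18, 15 moved the same way in all, 7 toward A and 8 toward B, and 3 had mixed signs. Of the 24 that changed in WT, 17 (70.8%) moved toward the paralog that was lower in untreated libraries of the strain labelled msn2/4∆, as did 31 of the 43 changed among all 61 (72.1%). Changed or not, 21 of the 35 (60%) and 39 of the 61 (63.9%) did so.

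RPL9 was second to RPL15 by that mean log2 change (−3.03). RPL9B made up 23.3% ± 2.66 of the pair's CPM in untreated WT and 62.9% ± 7.57 after heat shock, and in hsf1∆ it went from 20.3% ± 2.03 to 76.2% ± 15.2. In WT RPL9B fell from 557, 646 and 655 CPM to 135.8, 131.4 and 110.7, less than RPL9A, and the log2 A/B ratio changed by −2.50 (standard error 0.35, adjusted p = 3.52e-07). In the other strains it changed by −3.81, −2.51 and −3.30 (hsf1∆, HSF1+ and the strain labelled msn2/4∆). In heat-shocked hsf1∆ the RPL9A libraries ran from 14.01 to 50.5 CPM.

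Pairs that moved toward B in all 4 strains also included RPL14 and RPL24, with mean changes of −1.94 and −1.51 over the strains. RPL14A had 1599, 1371 and 1575 CPM in untreated WT and 119.4, 75.8 and 81.9 after heat shock. RPL14B had 635, 530 and 617 CPM untreated and 147, 102.3 and 103.9 after heat shock, so the order of the copies turned over in all 3 WT libraries. The WT ratio changed by −1.71 (standard error 0.12, adjusted p = 6.87e-13).

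Pairs that moved toward A in all 4 strains included RPL26, RPL31, RPL40, RPL35 and RPL8, with mean changes of 1.52, 1.01, 0.94, 0.73 and 0.66. RPL26A had 915, 788 and 917 CPM in untreated WT and 132.6, 97.7 and 100.5 after heat shock, against the RPL26B values given above. The RPL26B share went from 61.5% ± 0.384 to 39.9% ± 3.62, and the ratio changed by 1.27 (standard error 0.17, adjusted p = 1.56e-07). RPL40 encodes a fusion of ubiquitin to a ribosomal protein, and RPL35 sits at the mouth of the exit tunnel. As 81.35% of the 50-base stretches of the RPL35 genes recur elsewhere, the RPL35 ratio is uncertain. The RPL8 call was lost without the first heat-shocked library in hsf1∆ (adjusted p = 0.0678) and in the strain labelled msn2/4∆ (adjusted p = 0.086).

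After AzC fewer ratios passed with all groups fitted together. There were 10 of 35 in WT (32.8% of all 61), 15 in the strain labelled msn2/4∆ (50.8%), 0 in HSF1+ (1.64%) and 0 in hsf1∆ (0%). RPL15 changed by −1.85 in WT (standard error 0.16, adjusted p = 3e-10), −2.45 in the strain labelled msn2/4∆, −0.49 in HSF1+ (adjusted p = 0.0893) and −0.041 in hsf1∆ (adjusted p = 1.0). RPL7 changed by −1.02 in WT (standard error 0.28, adjusted p = 0.00374) and RPL9, RPL12 and RPL14 had means of −0.42, −0.34 and −0.16 over the strains. These means mix strains with opposite signs. RPL12 passed in 2 strains. RPL9 and RPL14 passed only in the strain labelled msn2/4∆ and not in WT (adjusted p = 0.107 and 0.116). With the compared groups fitted alone both passed in WT (adjusted p = 0.00438 and 0.00171), so no difference between the strains follows. In the strain labelled msn2/4∆ the RPL9 call was lost under some alternatives, such as without the second AzC library (adjusted p = 0.0508). RPL8 changed by 0.76 in WT (standard error 0.14, adjusted p = 8.38e-05) and RPL35, RPL31, RPL43 and RPL17 had means of 0.31, 0.29, 0.26 and 0.20. RPL43 and RPL17 lost their WT call without the second AzC or the third untreated library (adjusted p = 0.0796 to 0.162). In WT 18 ratios passed when the compared groups were fitted alone.

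**Figure D4:**
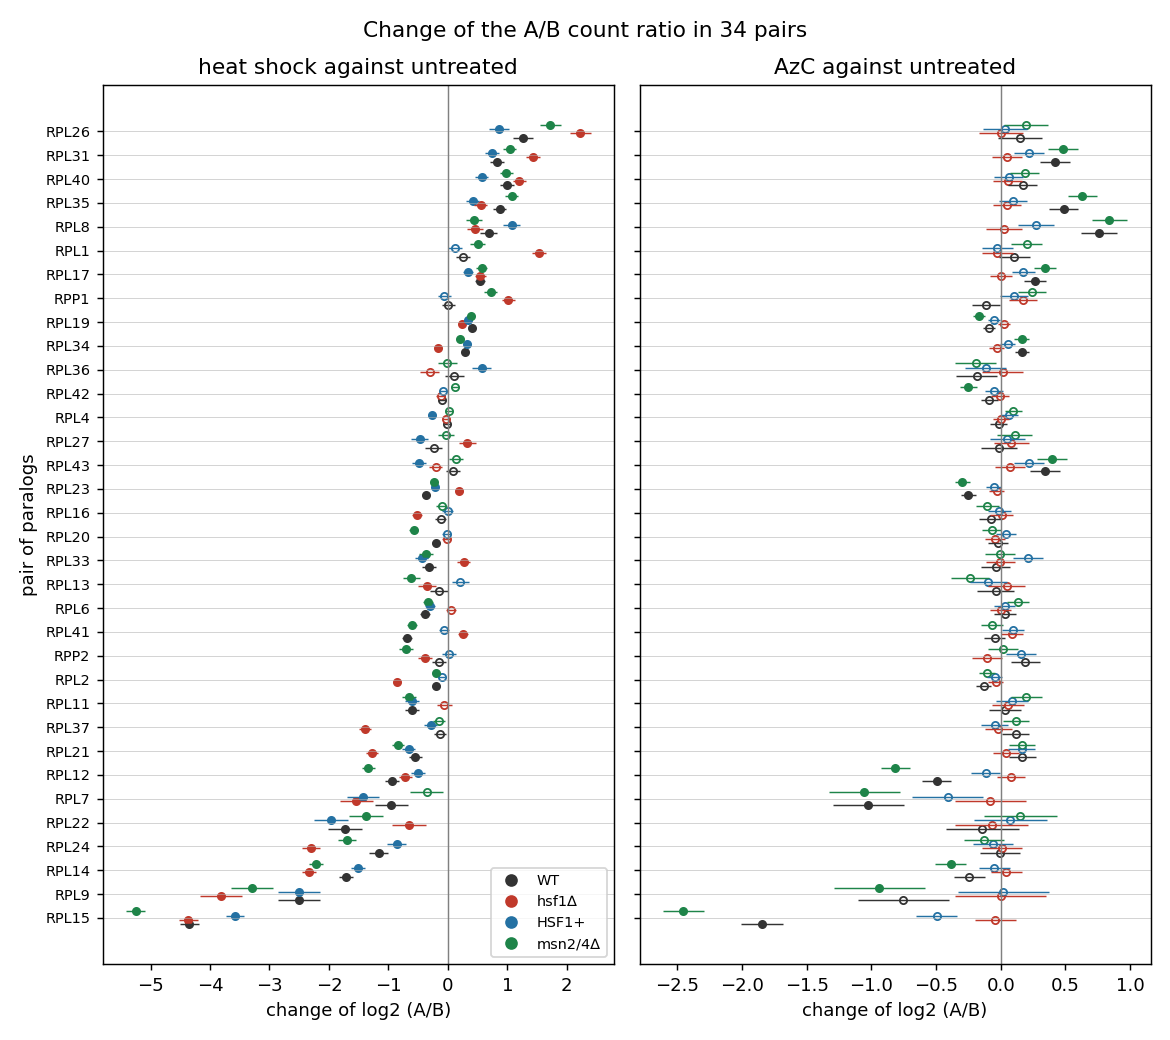
Change of log2 (A/B) in 34 of the 35 pairs (rows) after heat shock (left) and AzC (right) in the 4 strains (colours), with standard errors as lines, filled points for an adjusted p below 0.05 and open points otherwise. RPL15 and RPL9 reach the lowest values and RPL26 the highest after heat shock, and after AzC the hsf1∆ points lie near 0.

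Untreated strains differed in these genes. In hsf1∆ 60 of the 81 were lower than in HSF1+ and 0 were higher, with a median of −0.57 (1.48-fold), where 18.9% of all genes were lower and 19.5% higher. In HSF1+ 27 were lower than in WT (12.6% of all genes) and 5 were higher (17.5% of all genes), with a median of −0.38. Deviations from group means correlated between equal replicate numbers in this comparison (lowest 0.15), but the labels state no pairing. With replicate as a block 58 were called. The count of 32 was 13 with scaling by library size alone (5 higher and 8 lower), 71 with the compared groups alone, and 9 to 29 with 1 library left out. Each of HSF1+ untreated 2 and 3 and WT untreated 1 and 3 took it to 13 or below. In the strain labelled msn2/4∆ no member differed from WT by edgeR, at unadjusted p below 0.05 or by DESeq2, with a median of −0.029, where 0.786% of all genes were lower and 0.262% higher.

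The members higher and lower in the cassette strains lay on different chromosomes. In HSF1+ the other genes of chromosome XIII had a median of 0.97 against WT (452 genes, 90.7% of them called higher), while the medians of the other 15 chromosomes lay between −0.064 and −0.024. The 5 members higher in HSF1+ are the 5 members on chromosome XIII. These are RPL6A (0.55), RPL13B (0.55), RPL15B (0.88), RPL20A (0.61) and RPL36A (0.59), and none of the other 76 was higher. RPL13B, for example, held 2412, 2174 and 2403 CPM in WT and 3681, 3471 and 3115 in HSF1+, which do not overlap (log2 change 0.55, standard error 0.14, adjusted p = 0.00303). MSN2, also on chromosome XIII, stood at 266 ± 14.2 CPM in HSF1+ and 232 ± 6.09 in hsf1∆ against 132.4 in WT.

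In hsf1∆ against HSF1+ the other genes of chromosomes II, V and VII had medians of 0.29, 0.60 and 0.52, and those of the other 13 chromosomes lay between −0.14 and −0.016. Of the 18 members on chromosomes II, V and VII, 1 was lower, with a median of −0.17. Of the 63 members elsewhere, 59 were lower, with a median of −0.62. Set against the median of its own chromosome, each of the 81 members lay below it, with a median difference of −0.53. In HSF1+ against WT 80 of 81 did, with −0.35. DNA copy number was not measured, and the part of whole chromosomes in these differences was not tested.

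**Figure D5:**
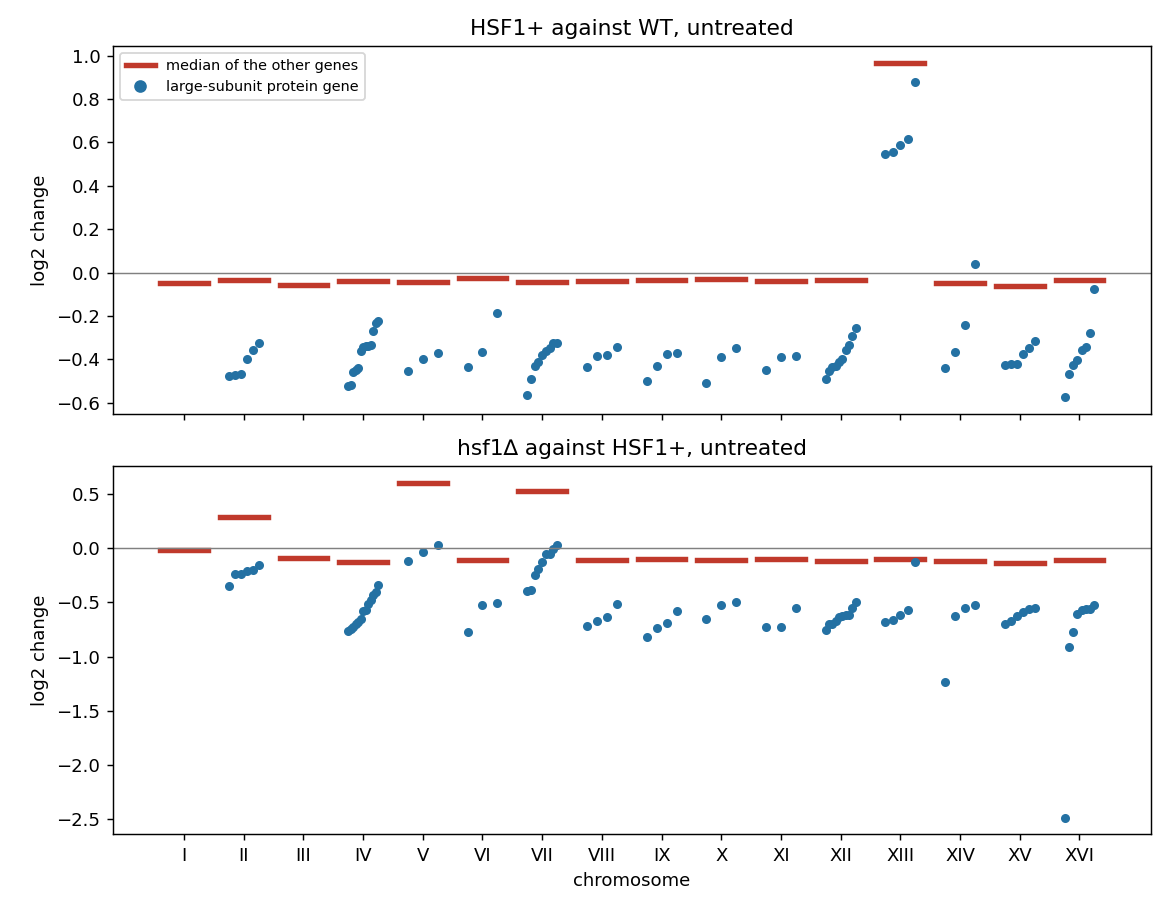
Log2 change of untreated HSF1+ against WT (top) and of untreated hsf1∆ against HSF1+ (bottom), by chromosome (x axis), with blue points for the 81 genes and red bars for the median of the other genes there. The red bar of chromosome XIII is at 0.97 in the top panel, those of II, V and VII are at 0.29, 0.60 and 0.52 in the bottom panel, and the points lie below the bar of their chromosome but for 1 point in the top panel.

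With the chromosome medians taken as offsets, 61 members were lower in hsf1∆ than in HSF1+ (10.7% of all genes) and 0 higher, and 11 were lower in HSF1+ than in WT (9.35% of all genes) and 0 higher. RPL13B turned to −0.41 and passed (adjusted p = 0.0337). RPL36A turned to −0.38 and RPL15B to −0.089, and neither passed (adjusted p = 0.0705 and 0.289). This offset was chosen after the data were seen.

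The A/B ratios that differed between untreated strains were mostly those of pairs split over such chromosomes. Of the 35 ratios 5 differed between HSF1+ and WT (18% of all 61), and they are the 5 with 1 copy on chromosome XIII (RPL6, RPL13, RPL15, RPL20 and RPL36). With the offset 0 of the 35 differed. Between hsf1∆ and HSF1+ 11 differed (34.4% of all 61), 9 of them among the 10 pairs whose copies lie on unequally shifted chromosomes, and the other 2 were RPL2 and RPL15. With the offset 2 remained, RPL7 (1.73, standard error 0.28, adjusted p = 2.9e-05) and RPL2 (−0.19, adjusted p = 0.0487). Between the strain labelled msn2/4∆ and WT 0 of the 35 differed (1.64% of all 61).

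RPL7B and RPL9B were the 2 members called at least 2-fold lower in untreated hsf1∆ than in HSF1+, as were 1.18% of all genes. RPL7B, which lies on chromosome XVI with SNR59 overlapping it, held 357, 366 and 330 CPM in HSF1+ and 80.5, 60.3 and 47.1 in hsf1∆. Its change was −2.49 (standard error 0.23, adjusted p = 1.32e-09), and after AzC it still stood at 77.4, 57.0 and 51.3 CPM in hsf1∆. RPL9B on chromosome XIV held 604, 665 and 638 CPM in HSF1+ and 311, 265 and 233 in hsf1∆ (−1.24, standard error 0.16, adjusted p = 4.66e-07). RPL18B also had a small p, at −0.53 (standard error 0.09, adjusted p = 3.05e-05).

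The heat-shock fall was larger in hsf1∆ than in HSF1+. The difference of responses passed for 63 of the 81 genes, all more negative in hsf1∆, with a median of −1.06, where 14.2% of all genes were more negative and 8.04% less. RPL8A held 599, 579 and 578 CPM in untreated hsf1∆ and 36.7, 18.5 and 28.9 after heat shock, and in HSF1+ 860, 993 and 873 CPM untreated and 201, 156 and 222 after heat shock. The difference was −2.15 (standard error 0.27, adjusted p = 1.37e-06). RPL6B (−1.86, standard error 0.24) and RPL20A (−1.70, standard error 0.23) followed by p. RPL15B had −0.14, which did not pass (adjusted p = 0.25), as against −0.91 for RPL15A (standard error 0.23, adjusted p = 0.00476). The A/B ratio responded differently in 27 of the 35 pairs (72.1% of all 61), with the smallest p for RPL2 (−0.75) and RPL1 (1.41) and the largest size for RPL24 (−1.44). As 80.99% of the 50-base stretches of the RPL1 genes recur elsewhere, the RPL1 ratio is uncertain.

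Under AzC the response of hsf1∆ differed from that of HSF1+ for 7 members, all less negative (7.55% of all genes were, and 13% were more negative), with a median of 0.51. The 7 are a share near that of all genes. RPL38, whose loss yeast survives, had 0.62 (standard error 0.18, adjusted p = 0.0165), RPL18B 0.61 and RPL35A 0.60. The count was 2 to 18 with 1 library left out, lowest without the second HSF1+ AzC library, and 70 with the compared groups alone. No A/B ratio of the 35 responded differently (0% of all 61). RPL38 lost its call without the second HSF1+ AzC library (adjusted p = 0.0603) or the first hsf1∆ AzC library (0.0559).

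Between the strain labelled msn2/4∆ and WT the heat-shock response differed for 9 members, 7 more negative (13.9% of all genes) and 2 more positive (16.3%). Both counts are smaller shares than those of all genes. The positive ones were RPL15B (0.37, standard error 0.081, adjusted p = 0.00106) and RPL18B (0.39), and the largest negative was RPL8A (−0.88, standard error 0.27, adjusted p = 0.0135), followed by RPL5 (−0.85, adjusted p = 0.0172). RPL8A and RPL5 lost their calls without WT heat 1 (adjusted p = 0.0828 and 0.0919) or the second heat-shocked library of the strain labelled msn2/4∆ (0.0525 and 0.0654), and the count was 2 without WT heat 1 and 24 without the third heat-shocked library of the strain labelled msn2/4∆. Ratios of 6 of the 35 pairs responded differently, near the 18% of all 61, with RPL15 at −0.90 (adjusted p = 0.00667). Under AzC 0 members differed by edgeR, 8 had an unadjusted p below 0.05 and DESeq2 called 1, with a median of −0.40, where 1.05% of all genes were more negative and 0.524% less, and 0 of the 35 ratios passed.

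Genes that build the large subunit fell with its proteins. All 14 tested genes of large-subunit assembly, chosen from general knowledge, were lower in WT after heat shock (median −2.69) and after AzC (median −2.22). Of all genes tested, 38.1% were lower in WT after heat shock and 32.7% after AzC. NUG1, a GTPase of nucleolar assembly, changed by −3.43 (standard error 0.42) after heat shock, while SDO1, which helps release the anti-association factor Tif6, changed by −0.79 (standard error 0.1). After AzC 0 of the 14 changed in hsf1∆ (0.0164% of all genes were lower) and 11 were lower in HSF1+ (21.9% of all genes). All 4 tested chaperones dedicated to single large-subunit proteins were lower in WT after both stresses. SYO1, which escorts Rpl5 and Rpl11, changed by −3.29 (standard error 0.6) after heat shock, and SQT1, which serves Rpl10, by −1.04 (standard error 0.21).

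In WT the 12 regulators did not move as a group. After heat shock in WT 5 were higher and 4 lower, with a median of 0.035. In that comparison 42% of all genes were higher and 38.1% lower, so the counts of regulators were near these shares. FHL1 changed by −0.92 (standard error 0.081) and RAP1 by −0.999 (standard error 0.11), while CRF1, a corepressor at these promoters, changed by 1.57 (standard error 0.2) and STB3, which binds RRPE, by 0.99 (standard error 0.083). TOD6, which binds PAC, changed by −2.41 (standard error 0.53), and IFH1 had −0.67 and did not pass (adjusted p = 0.0858). After AzC 3 were higher and 5 lower in WT, with FHL1 at −0.58, IFH1 at −1.003 (adjusted p = 0.0158), CRF1 at 1.13, STB3 at 0.78 and RAP1 at 0.013 (adjusted p = 0.923). Of all genes tested, 34.2% were higher and 32.7% lower in WT after AzC. In the strain labelled msn2/4∆ more of the 12 were lower, 7 after heat shock and 8 after AzC (medians −0.41 and −0.33). There 4 and 3 were higher, and 34% and 31% of all genes were lower. After heat shock 4 were higher and 4 lower in hsf1∆, and 3 higher and 5 lower in HSF1+. After AzC none changed in hsf1∆, and in HSF1+ 3 were higher and 2 lower.

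RPP1, the RNase P subunit caught by the name pattern, changed by −2.13 (standard error 0.18) after heat shock and −1.80 (standard error 0.17) after AzC in WT. After AzC it changed by −0.82 in HSF1+ (adjusted p = 0.000226) and 0.0053 in hsf1∆ (adjusted p = 1.0). It is not counted among the 81.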

How the data were processed

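Per the labels, RNA came from a RiboPure extraction, TruSeq libraries were made with poly-A selection, and a NovaSeq sequenced them. STAR, Salmon, Trim Galore and FastQC are named, with the R64 build and no versions, in the submitters' processing notes. No source used here gives the counting tool, its strand setting or its treatment of reads with several matches. The deposited table holds raw whole-number counts per gene for 7126 genes in 36 libraries, with no normalization. Depth ran from 8159203 to 99558095 counts, so the spread of the 3 cultures limits precision.

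Members were taken by name, and 81 of 82 had a ribosomal product in RefSeq. The members and lists were chosen with earlier results of these data known. Groups came from the labels. Genes were tested with edgeR 4.0.16 (R 4.3.3) by 1 quasi-likelihood model of 12 group means, with TMM scaling and no block, over the 6109 genes that passed filterByExpr, in 19 comparisons. CPM are TMM-adjusted. Pairs were tested with limma 3.58.1 on log2((A + 0.5)/(B + 0.5)) over 61 pairs. Each pair had 1 estimate of spread shared by the 12 groups, though spreads differed between groups. For RPL9 the SD of the log2 ratio was 0.18 in untreated hsf1∆ and 1.16 after heat shock. P-values were adjusted by Benjamini-Hochberg over all genes or pairs of a comparison, and the threshold was 0.05. Positions, sequences and shared 50-base stretches came from the R64 RefSeq genome, in which 6030 of the 7126 names were found. ACL4, DRG1 and EFL1 were not tested under these names.

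Genes named are RPL15A and RPL15B, the 3 highest and 3 lowest members of each treatment comparison, the 3 with the smallest p between strains, the 5 pairs with the largest and smallest mean change, list genes and label checks. Values of further members named beside these were chosen after they were seen. Alternatives were DESeq2 1.42.0, RLE factors, no filter on low counts, scaling by library size alone, a replicate block, compared groups alone, single libraries left out, a 2-fold minimum, a pair pseudocount of 5, no variance trend and a minimum pair change of 0.5. Thinning of 4 deep libraries, replicates 2 and 3 alone, and chromosome offsets were added after the data were seen. Equal replicate numbers were checked for pairing by the correlation of deviations from group means. All 3 exceeded 0.1 for heat shock and AzC in WT (lowest 0.117 and 0.163), for AzC against heat shock in WT, HSF1+ and the strain labelled msn2/4∆, and for HSF1+ (lowest 0.15) and the strain labelled msn2/4∆ against WT untreated. The tests were tested on counts drawn from a negative binomial model with the spread of the data. The treated group was set equal to the untreated one but for 200 genes. Of these, 100 were changed by 1 and 100 by 2 on the log2 scale, up or down. The broad fall of these genes after heat shock was therefore not simulated, and its effect on scaling was not tested. Of the 100 genes given a true 2-fold change among 6109, edgeR called 94% in place of WT heat shock and 91% in place of hsf1∆ AzC. Of all calls, 4.02% and 7.28% were false. The pair test called 100% and 80% of 10 pairs given the same change, with 0% false. Values of 1 member and its pair are not reported here.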

Additional observations from a re-analysis of the deposited data

Results flagged for a closer look

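Responses that differed between strains by a test of the difference itself were taken up for a closer look. Heat shock gave 63 members and 27 pair ratios with a different response in hsf1∆ than in HSF1+. All 63 were more negative, as were 14.2% of all genes, and 72.1% of all 61 ratios differed. The members flagged by name were RPL15A (−0.91), RPL8A (−2.15), RPL6B (−1.86) and RPL20A (−1.70), each more negative in hsf1∆. AzC gave 7 members with a different response in hsf1∆ than in HSF1+, among them RPL18B (0.61), RPL35A (0.60) and RPL38 (0.62). All 7 were less negative, as were 7.55% of all genes, so the share among the members was near that of all genes. RPL35A and RPL38 lost their calls under some alternatives. Heat shock gave 9 members and 6 pair ratios with a different response in the strain labelled msn2/4∆ than in WT, among them RPL15B (0.37), RPL8A (−0.88) and RPL5 (−0.85). Of the 9, 7 were more negative (13.9% of all genes) and 2 more positive (16.3%), and 18% of all 61 ratios differed. The members and pairs did not exceed these shares. RPL8A and RPL5 lost their calls under some alternatives. The causes of these differences were not tested.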

How the results depend on the processing

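Of 447 recomputed counts of members or pairs, 390 stayed within 1.5 times the reported count. The cause of the shifts below was not tested. With the compared groups alone, members called were 71 (HSF1+ against WT untreated), 70 (hsf1∆ minus HSF1+ response to AzC) and 5 (msn2/4∆ minus WT response to heat shock), and pairs were 3 (HSF1+ AzC), 18 (WT AzC), 25 (msn2/4∆ AzC), 12 (HSF1+ against WT) and 20 (hsf1∆ against HSF1+). With a replicate block these were 58, 44 and 25 members, 1 member for the msn2/4∆ minus WT response to AzC and 1 pair for HSF1+ AzC. The block changed no other count of members or pairs by over 1.5 times. A 2-fold minimum left 0 members in HSF1+ AzC, in HSF1+ against WT and in the responses of hsf1∆ to AzC and msn2/4∆ to heat shock, and 2 in hsf1∆ against HSF1+. A minimum pair change of 0.5 left 15 pairs in HSF1+ heat shock, 3 in WT AzC, 6 in msn2/4∆ AzC and 4 in hsf1∆ against HSF1+. Library size alone gave 13 (HSF1+ against WT), 14 (hsf1∆ response to AzC), 4 (msn2/4∆ response to heat shock) and 1 (msn2/4∆ response to AzC). It moved the median of all genes to 0.12 in WT heat shock, 0.16 in WT AzC, 0.27 in msn2/4∆ heat shock and 0.25 in msn2/4∆ AzC. DESeq2 gave 23 and 1 members for the responses to AzC of hsf1∆ and msn2/4∆, and RLE factors 16 for the former. Replicates 2 and 3 alone gave 32 (HSF1+ AzC), 11 (HSF1+ against WT) and 3 (msn2/4∆ response to heat shock). Leaving out single libraries gave 40 to 74 members for HSF1+ AzC, 9 to 29 for HSF1+ against WT, 2 to 18 for the hsf1∆ response to AzC and 2 to 24 for the msn2/4∆ response to heat shock. Chromosome offsets gave 11 members (HSF1+ against WT), and 0 and 2 pairs (HSF1+ against WT, hsf1∆ against HSF1+). They turned RPL13B to −0.41, RPL15B to −0.089 and RPL36A to −0.38 in HSF1+ against WT, and RPL12 A/B to −0.28 and RPL26 A/B to 0.057 in hsf1∆ against HSF1+. Of these, RPL13B alone passed with the offset. After heat shock 79 or 80 members were lower in each strain under each alternative run, after AzC 76 to 80 in WT and 77 to 80 in msn2/4∆, and 0 in hsf1∆. Of 3481 recomputed values of single members or pairs, 3382 kept their call, passing or not, 57 lost their call and 37 gained one. The other 5 changed sign, and of these RPL13B alone still passed.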
